A study of Mus musculus with 6 samples.

Results

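The S100 genes outside neutrophil granules are 10 members of the S100 family of small calcium-binding proteins, namely S100a1, S100a3, S100a4, S100a6, S100a10, S100a11, S100a13, S100a14, S100a16 and S100b. They were chosen by gene symbol, leaving out S100a8 and S100a9, which neutrophils store, and all 10 were found among the 54146 genes of the count tables. Their transcripts were counted in 3 tumors grown from wild-type 4T1 cells and 3 grown from Ki-67-KO (Mki67-/-) 4T1 cells. The 4T1 line is a mouse mammary carcinoma line, and Mki67 encodes Ki-67, a protein of proliferating cells. Both kinds of cell were injected orthotopically, into the mammary fat pad, and the hosts were nude mice, animals without a thymus that keep natural killer cells and macrophages. Whole tumors were taken 3 weeks later. Age and sex of the mice and the number of knockout clones are not given in the labels, so a difference between clones and an effect of the knockout cannot be told apart. The labels do not say whether replicates came from separate mice, and the p-values measure only the spread between these samples. Knockout tumors still held Mki67 transcript, at 118 CPM ± 19.9 (SD, n = 3) against 360 CPM ± 34.9 (SD, n = 3) in wild-type tumors. This difference passed the test used throughout (edgeR, adjusted p = 6.79e-05), and the labels do not give the edited site. CPM is the count per 1000000 counts on genes, scaled between libraries.

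S100 proteins work as dimers. Each subunit carries a pair of EF-hands, the loops that hold calcium, and calcium binding opens a surface that grips a target protein. S100a10 is the exception, as its loops no longer bind calcium, and it sits permanently on annexin A2 at the membrane. S100a11 pairs with annexin A1, S100a6 with annexin A11 and the calcyclin-binding protein Cacybp, and S100a4 with the heavy chain of non-muscle myosin. S100a14 is mostly an epithelial protein, S100a16 is expressed in many tissues, S100a3 belongs to the hair cuticle, S100a1 to muscle and S100b to glia and fat cells. S100a4 was first described in metastatic mouse mammary tumor lines. Some S100 proteins also leave the cell and act on the receptor Ager, also called RAGE.

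Of the 10 genes, 9 lie on chromosome 3, and only S100b lies elsewhere, on chromosome 10. Their promoter windows are shown because the S100 genes of this cluster did not all move in the same direction. Whether the letters marked below bear on direction was not tested. RefSeq windows (GRCm38.p6), from 250 bases before to 50 bases after a start, were matched for 8 of the 10 genes, and S100a10 and S100a14 were not matched. In the 6 windows printed below, capitals mark the letters TATAAA, the AP-1 letters TGANTCA and the GC-box letters GGGCGG, searched on both strands and anywhere in the window. Over all 32851 windows of the table, 13.6% held TATAAA, 7.81% the AP-1 letters and 35.7% the GC-box letters.
S100a4, chr3:90603520-90603819, plus strand: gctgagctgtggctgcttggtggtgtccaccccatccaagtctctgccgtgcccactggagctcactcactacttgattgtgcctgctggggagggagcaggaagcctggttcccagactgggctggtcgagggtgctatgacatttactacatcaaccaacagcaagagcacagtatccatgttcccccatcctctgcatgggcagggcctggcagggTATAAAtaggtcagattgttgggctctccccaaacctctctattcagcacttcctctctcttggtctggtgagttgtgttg
S100a6, chr3:90612644-90612943, plus strand: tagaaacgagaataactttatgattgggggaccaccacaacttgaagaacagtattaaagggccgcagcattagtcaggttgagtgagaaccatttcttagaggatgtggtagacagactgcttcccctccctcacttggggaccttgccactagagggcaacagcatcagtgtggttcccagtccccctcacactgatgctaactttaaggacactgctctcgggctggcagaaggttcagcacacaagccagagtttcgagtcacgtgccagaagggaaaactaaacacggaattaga
S100a11, chr3:93520246-93520545, plus strand: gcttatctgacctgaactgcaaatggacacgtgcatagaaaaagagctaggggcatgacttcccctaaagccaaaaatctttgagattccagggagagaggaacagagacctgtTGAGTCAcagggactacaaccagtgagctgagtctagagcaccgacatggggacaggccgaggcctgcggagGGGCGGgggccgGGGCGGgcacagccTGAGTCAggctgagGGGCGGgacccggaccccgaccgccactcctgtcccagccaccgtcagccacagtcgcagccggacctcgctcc
S100a13, chr3:90514185-90514484, plus strand: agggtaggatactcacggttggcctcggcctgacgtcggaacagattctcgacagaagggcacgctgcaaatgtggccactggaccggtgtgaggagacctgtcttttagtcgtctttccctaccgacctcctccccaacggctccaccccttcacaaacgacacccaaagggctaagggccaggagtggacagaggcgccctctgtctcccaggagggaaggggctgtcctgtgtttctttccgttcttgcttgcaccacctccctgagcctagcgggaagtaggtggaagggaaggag
S100a16, first start, chr3:90537004-90537303, plus strand: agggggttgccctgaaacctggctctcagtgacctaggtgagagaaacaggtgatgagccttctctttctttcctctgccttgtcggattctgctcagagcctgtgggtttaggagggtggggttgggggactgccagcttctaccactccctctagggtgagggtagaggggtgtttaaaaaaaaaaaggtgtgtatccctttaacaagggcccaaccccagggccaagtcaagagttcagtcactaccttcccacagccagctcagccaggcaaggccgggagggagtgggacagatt
S100a16, second start, chr3:90540896-90541195, plus strand: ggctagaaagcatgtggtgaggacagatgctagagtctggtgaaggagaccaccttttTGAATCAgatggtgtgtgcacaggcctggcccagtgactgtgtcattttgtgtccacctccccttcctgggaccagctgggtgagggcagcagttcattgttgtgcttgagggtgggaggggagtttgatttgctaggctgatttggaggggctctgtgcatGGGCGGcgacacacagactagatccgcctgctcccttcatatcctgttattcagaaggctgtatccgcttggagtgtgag

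The S100a11 window held 2 matches to the AP-1 letters and 3 to the GC-box letters, none of them overlapping. The second S100a16 window held 1 of each, and the S100a4 window held 1 TATAAA. No match was found in the S100a6, the S100a13 or the first S100a16 window, which says only that these letters are not in those bases. CpG pairs numbered 15 in the S100a11 window, 14 in that of S100a13 and 2 to 6 in those of S100a4, S100a6 and S100a16. These matches are descriptions of the sequence and not binding sites.

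Gene counts totalled 22081970 to 38399826 read pairs per library, and the knockout libraries were the shallowest. Unmapped pairs made up 31.2% to 33.9% of the wild-type libraries, 30.8% of knockout replicate 1 and 54.6% and 52.7% of knockout replicates 2 and 3. For a gene at 0 the limit is 3 counts, which is 0.0794 to 0.129 CPM, for counting error only. The tumors held transcripts of many cell types. The summed level of 10 epithelial markers, led by Krt8 and Krt18, ran from 2944 to 3047 CPM in wild-type and from 6163 to 6598 CPM in knockout libraries. That of 10 macrophage markers, led by Lyz2 and C1qa, ran from 5241 to 6112 CPM and from 888 to 1070 CPM. That of 10 fibroblast markers, led by Col1a1 and Col3a1, ran from 3212 to 4061 CPM and from 5415 to 10623 CPM, and none of these markers was at 0. In bulk tumor RNA, fewer cells of a type and less RNA per cell cannot be told apart.

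Of the 10 S100 genes, 3 rose in knockout tumors (S100a14, S100a16 and S100a11), 2 fell (S100a6 and S100a4) and 5 did not pass the test. The test was edgeR's quasi-likelihood test, Benjamini-Hochberg adjusted across 19900 tested genes, at a threshold of 0.05. All 10 genes passed the filter on low counts. In the same test 36% of all genes passed, 17.6% higher and 18.4% lower in knockout tumors, so the counts of S100 genes stand near the background. Their median log2 fold change was 0.24, beside 0.05 over all genes tested. For 5 of the 10, wild-type and knockout CPM ranges were apart, beside 50.5% of all genes. With only the 4 libraries under 40% unmapped pairs, which leaves 1 knockout library assumed to vary like the others, 5 were higher and 2 lower.

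**Figure D1:**
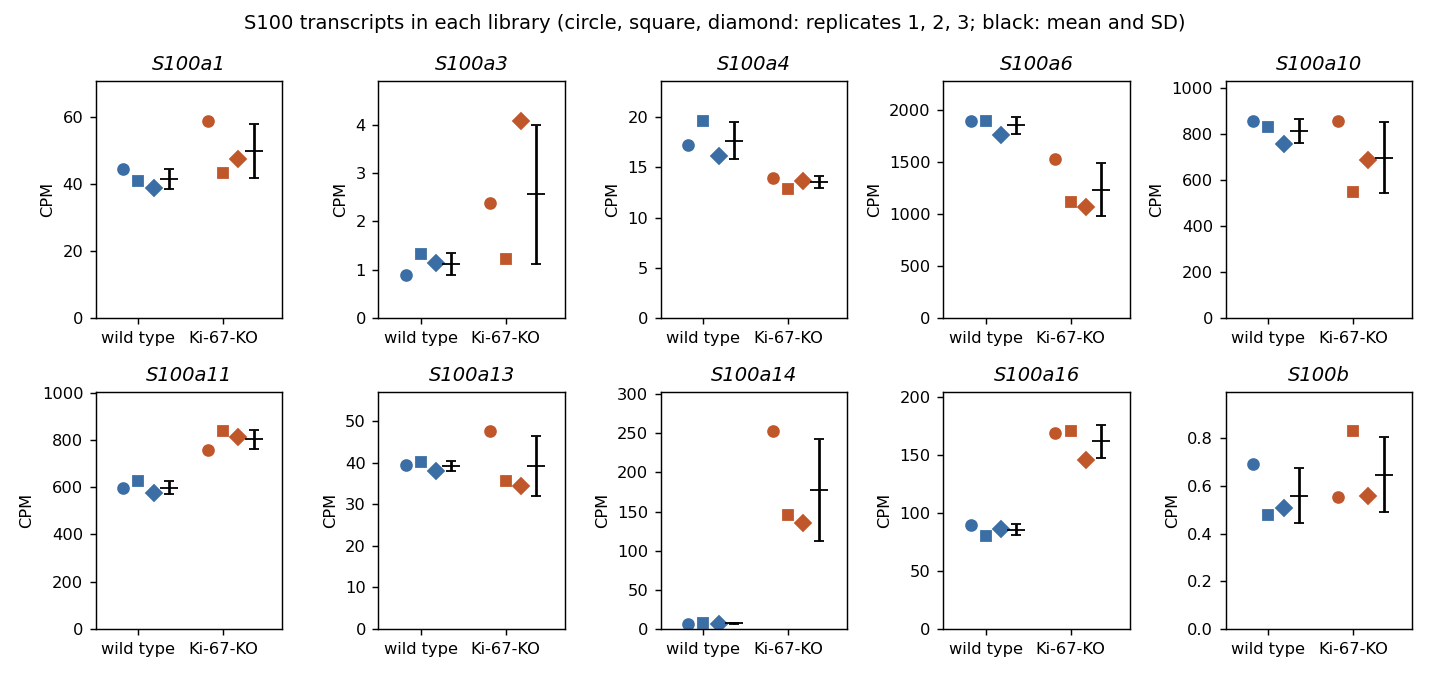
Level of each S100 gene in CPM (vertical axes from 0, one scale per gene) in 3 wild-type (blue) and 3 Ki-67-KO (orange) libraries, with replicates 1, 2 and 3 as circle, square and diamond and the mean ± SD in black. S100a14 stood at 6.52 to 7.84 CPM in wild-type and 135 to 253 CPM in knockout libraries, while for S100a1, S100a3, S100a10, S100a13 and S100b the groups overlapped.

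S100a14 (ENSMUSG00000042306, GRCm38 chromosome 3, 90526856 to 90528837, plus strand), an epithelial S100 protein, rose 25.2-fold. It was counted at 6.85, 7.84 and 6.52 CPM in wild-type replicates 1 to 3 and at 253, 146 and 135 CPM in the knockout replicates. The lowest knockout library lay far above the highest wild-type library, and knockout replicate 1 was the highest of all. The means were 7.07 CPM ± 0.69 and 178 CPM ± 65.0 (SD, n = 3 per group), so the log2 fold change was 4.65 (SE 0.26, edgeR, adjusted p = 7.51e-06). The call was kept in 18 of 18 alternatives, with a log2 fold change of 4.30 to 5.09.

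S100a16 (ENSMUSG00000074457, chromosome 3, 90537254 to 90543151, plus strand), the next gene of the set along the chromosome, expressed in many tissues, rose 1.89-fold. Its values were 89.7, 80.5 and 86.1 CPM in wild-type and 169, 170 and 145 CPM in knockout libraries. All 3 knockout libraries lay above all 3 wild-type libraries, and the spread within each group was small. The means were 85.4 CPM ± 4.66 and 162 CPM ± 14.1 (SD, n = 3 per group; log2 fold change 0.92, SE 0.10, edgeR adjusted p = 0.000206). This call too was kept in 18 of 18 alternatives.

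The count ratio of S100a14 to S100a16 within a library needs no scaling between libraries. It was 0.0763, 0.0974 and 0.0757 in wild-type and 1.49, 0.856 and 0.930 in knockout libraries. The log2 ratio was higher by 3.68 in knockout tumors (two-sided exact permutation test p = 0.1, the smallest that 3 against 3 can give, and 0.15 after adjustment over 6 ratios). Among the epithelial markers, 9 of 10 rose, with a median log2 fold change of 2.25, and their part in the S100a14 and S100a16 values was not tested.

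**Figure D2:**
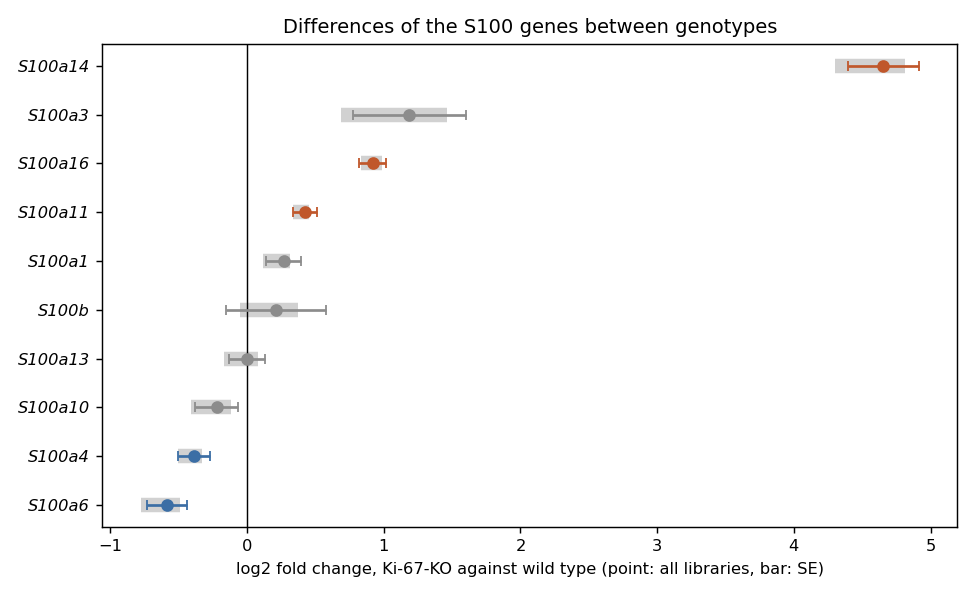
Log2 fold change of the 10 S100 genes, Ki-67-KO against wild type (horizontal axis), with points for all 6 libraries, thin bars for the SE and grey bands for the range when each library is left out in turn; orange genes rose, blue genes fell and grey points did not pass the test. S100a14 stands apart at 4.65, and S100a6 is lowest at -0.58.

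S100a11 (ENSMUSG00000027907, chromosome 3, 93520488 to 93526287, plus strand), a membrane-associated partner of annexin A1, rose 1.34-fold. It stood at 596, 626 and 573 CPM in wild-type and at 759, 837 and 811 CPM in knockout libraries, with no overlap. The means were 598 CPM ± 26.4 and 802 CPM ± 39.6 (SD, n = 3 per group; log2 fold change 0.42, SE 0.09, edgeR adjusted p = 0.00738). The adjusted p was 0.0636 when wild-type replicate 1 was left out, 0.0752 when wild-type replicate 3 was, and 0.0995 with unfiltered counts, so the call was then lost, over a range of 0.00196 to 0.0995. Its processed pseudogene S100a11-ps held 9 to 27 counts per library, and pairs that map to both places were not counted.

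The partner annexin gene Anxa1 rose 1.76-fold, from a mean of 730 ± 27.9 to 1284 ± 360 CPM (SD, n = 3 per group; edgeR adjusted p = 0.00824). It stood at 1693, 1014 and 1145 CPM in the knockout libraries. The count ratio of S100a11 to Anxa1 was 0.827, 0.822 and 0.810 in wild-type and 0.448, 0.825 and 0.709 in knockout libraries. The ratio varied little within the wild-type group, and the groups overlapped (two-sided exact permutation p = 0.3). Knockout replicate 1 had the lowest ratio and the highest Anxa1 level.

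S100a10 (ENSMUSG00000041959, chromosome 3, 93555080 to 93564643, plus strand), the calcium-independent partner of annexin A2 and a surface binding site for plasminogen, did not pass the test. Its values were 856, 831 and 757 CPM in wild-type and 859, 548 and 687 CPM in knockout libraries. Knockout replicate 1 matched the wild-type level while replicates 2 and 3 lay below it. The log2 fold change was -0.22 (SE 0.16, unadjusted 95% interval -0.58 to 0.13, edgeR adjusted p = 0.291). Without knockout replicate 1 the gene passed, with a log2 fold change of -0.41 (adjusted p = 0.0155), over a range of 0.0155 to 0.930.

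Anxa2, the gene of the S100a10 partner, was at 1296 CPM ± 25.3 and 1525 CPM ± 122 (SD, n = 3 per group), which did not pass (edgeR adjusted p = 0.0877). The S100a10 to Anxa2 count ratio was 0.672, 0.627 and 0.588 in wild-type and 0.517, 0.370 and 0.481 in knockout libraries. All knockout ratios lay below all wild-type ratios, a log2 difference of -0.48 (two-sided exact permutation p = 0.1, the smallest possible, 0.15 after adjustment over 6 ratios).

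S100a6 (ENSMUSG00000001025, chromosome 3, 90612882 to 90624181, plus strand), calcyclin, was the S100 gene with the highest CPM and fell by 0.58 on the log2 scale. It was counted at 1892, 1896 and 1758 CPM in wild-type and at 1526, 1112 and 1063 CPM in knockout libraries. Every knockout library lay below every wild-type library, and knockout replicate 1 was nearest to them. The means were 1849 CPM ± 78.4 and 1233 CPM ± 254 (SD, n = 3 per group; log2 fold change -0.58, SE 0.14, edgeR adjusted p = 0.0142). With the share of pairs outside exons as a covariate the gene no longer passed (adjusted p = 0.0884, in a range of 0.000142 to 0.0884), at a log2 fold change of -0.56. The log2 fold change was -0.34 with only knockout replicate 1 in the knockout group and -0.33 with the unmapped share as a covariate. Its size thus depended on knockout replicates 2 and 3, the libraries with the most unmapped pairs, and both values passed.

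The count ratio of S100a6 to the gene of its partner annexin A11, Anxa11, was 59.4, 54.2 and 51.3 in wild-type and 45.1, 18.0 and 21.5 in knockout libraries. The knockout ratios all lay lower, by 1.08 on the log2 scale (a difference of -1.08, two-sided exact permutation p = 0.1, 0.15 after adjustment). Anxa11 itself was at 33.7 CPM ± 1.65 and 48.3 CPM ± 13.9 (SD, n = 3 per group) and did not pass (edgeR adjusted p = 0.0618).

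S100a4 (ENSMUSG00000001020, chromosome 3, 90603771 to 90606045, plus strand), the myosin-binding S100 protein linked to metastasis, fell 1.31-fold in the counts. It was at 17.3, 19.7 and 16.1 CPM in wild-type and 13.99, 12.8 and 13.7 CPM in knockout libraries, with no overlap and a narrow gap. The means were 17.7 CPM ± 1.82 and 13.5 CPM ± 0.60 (SD, n = 3 per group; log2 fold change -0.39, SE 0.12, edgeR adjusted p = 0.0337). The call was lost in 10 of 18 alternatives, among them leaving out wild-type replicate 1 (adjusted p = 0.0928), wild-type 2 (0.142) or knockout 3 (0.0762), over a range of 0.0157 to 0.142.

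The S100a4 level is a lower bound. Of its 584 exonic bases, 302 are shared with Gm42674, a gene model on the same strand that spans S100a3 and S100a4 exons and was listed at 0 in all 6 libraries. A pair on shared bases is not counted for either gene in tables of this layout, so the S100a4 counts come from pairs on the other 282 bases. S100a4 is also expressed by macrophages and fibroblasts. All 10 macrophage markers were lower in knockout tumors and 9 of 10 fibroblast markers higher, and their part in the S100a4 value was not tested. The S100a4 to S100a6 count ratio overlapped between the groups, at 0.00912 to 0.0104 and 0.00917 to 0.0129 (two-sided exact permutation p = 0.2).

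S100a1 (ENSMUSG00000044080, chromosome 3, 90511034 to 90514392, minus strand) and S100a13 (ENSMUSG00000042312, 90514435 to 90524581, plus strand) lie head to head, with 43 bases between their annotated 5′ ends. S100a1, a muscle S100 protein that acts on calcium release, was at 44.5, 41.0 and 38.8 CPM in wild-type and 58.9, 43.3 and 47.3 CPM in knockout libraries. The groups overlapped and the gene did not pass (log2 fold change 0.27, SE 0.13, unadjusted 95% interval -0.02 to 0.55, edgeR adjusted p = 0.131). S100a1 did pass in the first stranded column (adjusted p = 0.0490), after adding unmapped share to the model (log2 fold change 0.47, adjusted p = 0.0150) and in the libraries under 40% unmapped (0.44, adjusted p = 0.00534), over a range up to 0.487. The 8 skeletal muscle markers, led by Tnnt3 and Acta1, summed to 45.4 to 54.1 CPM in wild-type and 61.6, 74.3 and 78.0 CPM in knockout libraries, and their part was not tested.

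S100a13, which takes part in the release of fibroblast growth factor 1 and interleukin-1 alpha, was at 39.5, 40.2 and 38.0 CPM in wild-type and 47.6, 35.7 and 34.3 CPM in knockout libraries. The knockout values straddled the wild-type ones, and the log2 fold change was 0.00 (SE 0.13, unadjusted 95% interval -0.30 to 0.30, edgeR adjusted p = 0.995). The count ratio of S100a1 over S100a13 was 1.13, 1.02 and 1.02 in wild-type and 1.24, 1.21 and 1.38 in knockout libraries, with no overlap (a log2 difference of 0.27, two-sided exact permutation p = 0.1, 0.15 after adjustment).

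Il1a, the gene of interleukin-1 alpha, rose 16.95-fold, from a mean of 5.06 ± 1.03 to 85.8 ± 1.24 CPM (SD, n = 3 per group; edgeR adjusted p = 8.08e-07). Exons of another gene cover 11.25% of its exonic bases. Fgf1, the gene of fibroblast growth factor 1, named here after its values were seen, was at 2.04, 2.12 and 1.66 CPM in wild-type and 2.11, 4.27 and 3.96 CPM in knockout libraries. The groups overlapped and it did not pass (log2 fold change 0.82, SE 0.29, edgeR adjusted p = 0.0526).

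For S100a1, S100a4, S100a6, S100a10, S100a13 and S100a14, knockout replicate 1 was the highest knockout library. Relative to the wild-type mean of log2 CPM, S100a10 stood at 0.08 in knockout replicate 1 and at -0.57 and -0.24 in replicates 2 and 3. The exonic length of S100a10 is 1212 bases. Its length class, from 1000 to under 2000 bases, held 862 protein-coding genes with a mean of at least 10 CPM. Their medians were 0.03, -0.15 and -0.20 in the same libraries. The medians were 0.03, -0.21 and -0.19 over 171 such genes with under 1000 exonic bases. Over 9631 such genes of all lengths they were -0.09, -0.09 and -0.17. Exonic lengths of the 10 S100 genes ran from 511 bases for S100a11 to 5660 for S100a3. S100a11, the shortest, was lowest in knockout replicate 1 among the knockout libraries. The part of transcript length in these values was not tested.

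S100a3 (ENSMUSG00000001021, chromosome 3, 90560578 to 90602702, plus strand), a hair cuticle protein, was counted at 0.883, 1.32 and 1.15 CPM in wild-type and 2.37, 1.22 and 4.09 CPM in knockout libraries. Knockout replicates 1 and 3 lay above the wild-type libraries and replicate 2 lay among them. The gene just missed the threshold (log2 fold change 1.19, SE 0.41, unadjusted 95% interval 0.25 to 2.13, edgeR adjusted p = 0.0525). It passed in 5 of 18 alternatives, among them without knockout replicate 2 (log2 fold change 1.46, adjusted p = 0.00424) and in DESeq2 (adjusted p = 0.0211). Without knockout replicate 3 the log2 fold change was 0.68, and with the share of pairs outside exons as a covariate 0.24 (adjusted p = 0.604, the highest). That share was 14.2%, 9.91% and 18.9% in knockout replicates 1 to 3, the same order as S100a3. The summed level of 8 hair follicle markers took the same order among the knockout libraries, at 14.996, 3.87 and 45.4 CPM, with 10.1 to 15.9 CPM in wild-type libraries. Krt71, a hair root sheath keratin and the most abundant of them, was at 6.77, 1.78 and 27.8 CPM in the knockout replicates. None of the 8 was at 0 over all libraries, and their part in the S100a3 values was not tested.

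**Figure D3:**
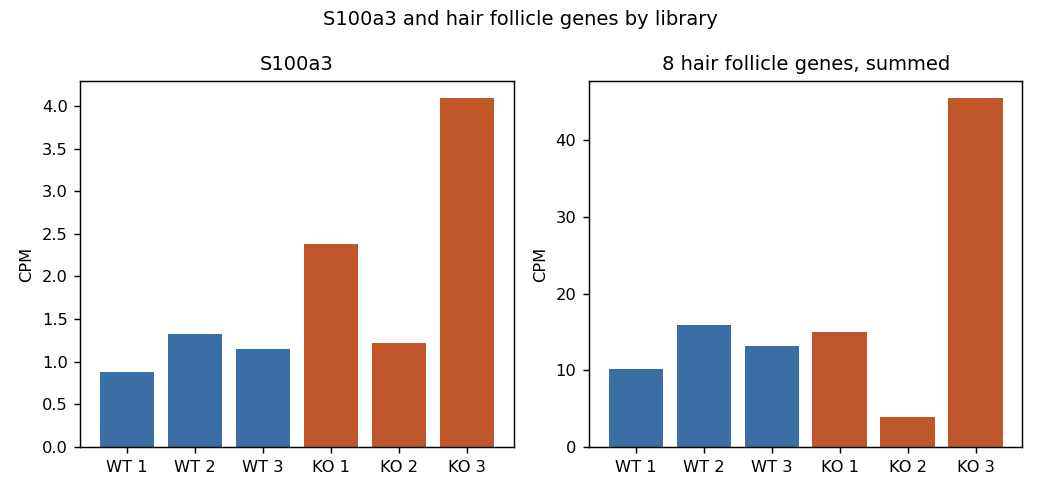
S100a3 (left) and the sum of 8 hair follicle genes (right) in CPM in the 3 wild-type (blue, WT) and 3 Ki-67-KO (orange, KO) libraries, 1 bar per library. In each panel knockout replicate 3 is highest, at 4.09 and 45.4 CPM, and knockout replicate 2 is the lowest knockout library.

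S100b (ENSMUSG00000033208, chromosome 10, 76253853 to 76261159, plus strand), a marker of Schwann and other glial cells, was barely detected. It had 25, 18 and 19 counts in wild-type and 17, 21 and 13 counts in knockout libraries, or 0.477 to 0.690 and 0.553 to 0.830 CPM. The groups overlapped (log2 fold change 0.21, SE 0.36, unadjusted 95% interval -0.62 to 1.04, edgeR adjusted p = 0.673). At this depth the counts do not tell changes within that interval apart. The 8 Schwann and glial markers summed to 37.4 to 42.5 CPM in wild-type and 58.4 to 82.5 CPM in knockout libraries, led by Mbp and Erbb3. Only 5 of the 8 passed the filter on low counts, and 3 of these were higher, beside 17.6% of all genes. Which cells these transcripts came from, and their part in the S100b values, was not tested. The 8 adipocyte markers, led by Fabp4 and Cfd, summed to 87.3 to 134 CPM and 327 to 884 CPM. Adipocytes are another known source of S100b. No marker of either list was at 0 over all libraries.

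Levels of different genes were compared as CPM per kilobase of exon. In wild-type tumors the order was S100a6 (1352 ± 57.3 CPM per kilobase), S100a11 (1171 ± 51.7) and S100a10 (672 ± 42.5, SD, n = 3 per group), and these 3 did not overlap. S100a1, S100a13 and S100a16 followed at 59.7, 54.9 and 52.8, and neighbours among them overlapped. S100a14 was at 4.09 ± 0.40, a level that 55.2% of tested genes did not exceed. In knockout tumors S100a11 led at 1570 ± 77.5, ahead of S100a6 at 902 ± 186 and S100a10 at 576 ± 128 (SD, n = 3 per group). S100a14, at 103 ± 37.6, and S100a16, at 99.9 ± 8.74, came next and overlapped, and 97.6% of tested genes did not exceed the S100a14 level. S100a3 and S100b were the lowest in either group, at 0.198 to 0.453. The S100a3 value is divided by an exonic length that holds several alternative starts, and that of S100a4, at 30.2 and 23.1, is a lower bound.

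**Figure D4:**
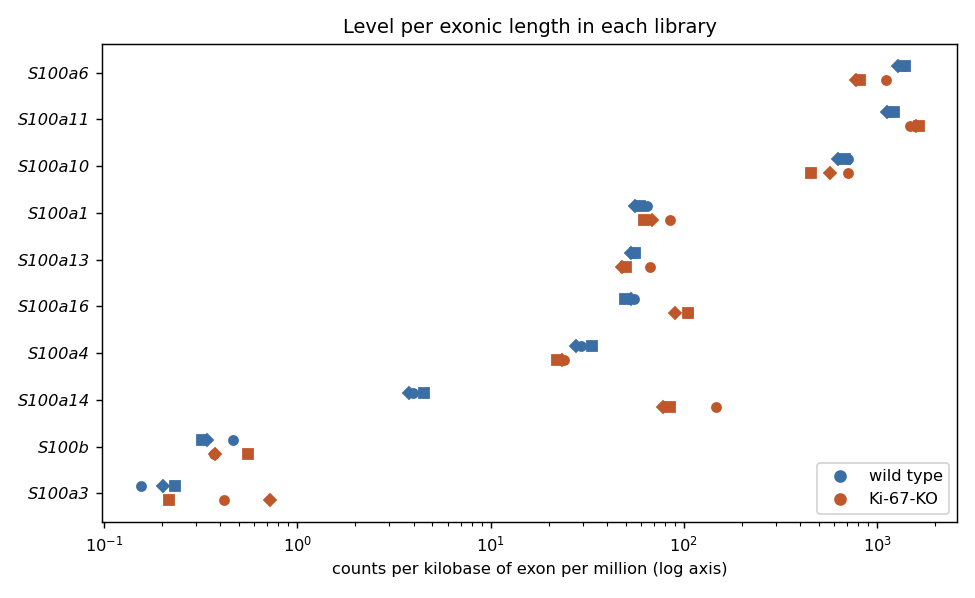
Level of each S100 gene in CPM per kilobase of exon (horizontal log axis) in each wild-type (blue) and Ki-67-KO (orange) library, with replicates as circle, square and diamond. S100a6 leads in wild-type tumors at 1352 and S100a11 in knockout tumors at 1570.

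Along chromosome 3 the S100 genes flank the epidermal differentiation complex, a run of skin barrier genes. From 90511034 to 93555080, the first to the last S100 start, 54 genes other than the 9 S100 genes of the set were tested. Of these, 37 were higher in knockout tumors (background 17.6%) and 1 lower. S100a7a, S100a8 and S100a9, which are outside the set, are among the 54. Without wild-type replicates 1, 2 and 3 in turn 10, 21 and 10 were higher, and without knockout replicates 1, 2 and 3 in turn 46, 35 and 40. The median log2 fold change of the 54 genes was 2.52, and its size differed between knockout libraries. Many Sprr and Lce genes were far higher in knockout replicate 2 than in the others. Sprr1b was at 5.89, 78.4 and 6.84 CPM in knockout replicates 1 to 3 and 2.76 to 3.60 CPM in wild-type libraries. Tchh went the other way, at 23.7, 3.48 and 56.5 CPM in the knockout replicates. Of the higher genes 35 lay among the 48 of the distal block, next to S100a11 and S100a10, where the small Sprr and Lce genes are near-identical copies and their counts are uncertain. Among the 6 other tested genes of the proximal block, 2 were higher, S100a9 among them, and 1 was lower, S100a7a.

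Changes of the S100 genes did not follow a single direction along the cluster. S100a14 and S100a16 rose, S100a4 and S100a6 fell, and S100a11 rose beside S100a10, which did not pass. S100a7a, which lies beyond S100a6, also fell, from a mean of 4.91 ± 0.51 to 2.63 ± 0.51 CPM (SD, n = 3 per group; log2 fold change -0.90, edgeR adjusted p = 0.00920). The neutrophil pair behind it was at 83.3 and 120 CPM for S100a8 (adjusted p = 0.0568) and at 121 and 185 CPM for S100a9 (adjusted p = 0.0191). All 10 keratinocyte markers rose, with sums of 78.1 to 134 CPM in wild-type and 989, 1650 and 749 CPM in knockout replicates 1, 2 and 3. Their part in the values of the cluster was not tested.

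**Figure D5:**
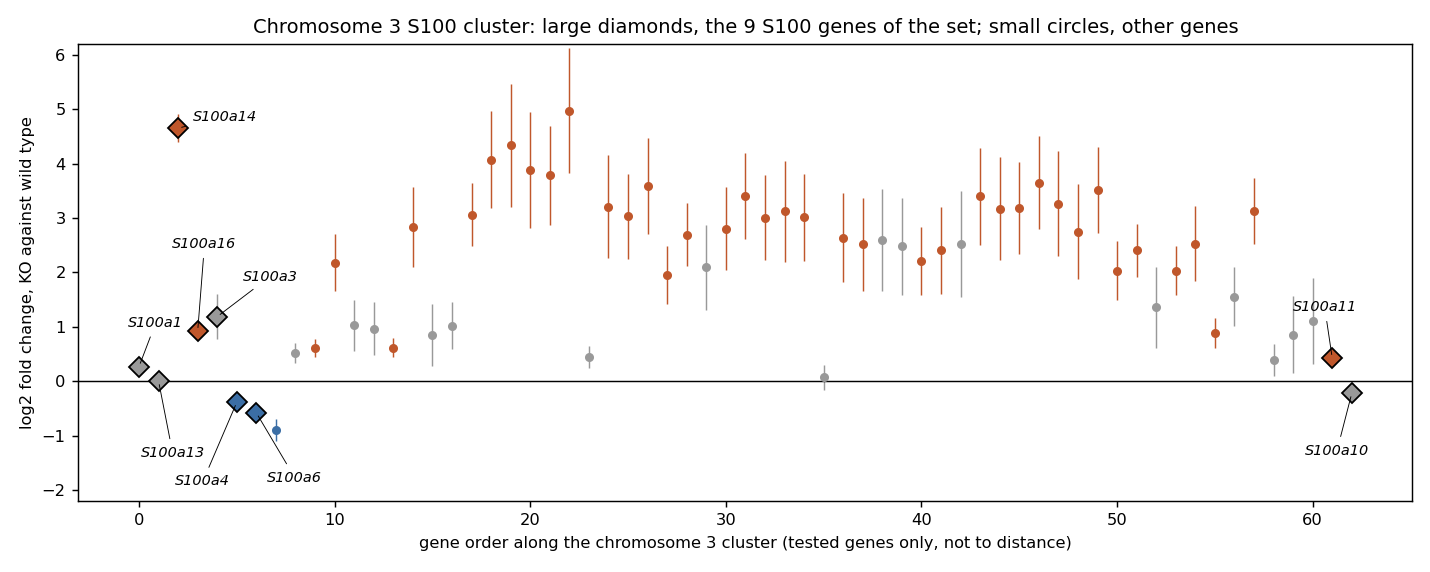
Log2 fold change with SE (vertical axis, Ki-67-KO against wild type) of the tested genes of the chromosome 3 cluster in gene order (horizontal axis, not to distance). Orange genes rose, blue genes fell and grey genes did not pass. Large diamonds are the S100 genes of the set, and S100a7a, S100a8 and S100a9 are among the small circles. S100a14 stands at 4.65 and S100a6 at -0.58, while the median of the other genes is 2.52.

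Fused S100 proteins of the complex, which join an S100 domain to long repeats of the cornified skin layer, were higher for 3 of 7 tested genes, beside 17.6% of all genes. edgeR called 0 lower, with 0 lower at an unadjusted p under 0.05 and 0 in DESeq2. Repetin, Rptn, went from 1.35, 1.35 and 1.60 CPM to 7.55, 25.9 and 4.43 CPM (log2 fold change 3.13, SE 0.60, edgeR adjusted p = 0.00474). Filaggrin, Flg, rose by 2.53 and its relative Flg2 by 2.03 on the log2 scale. Flg was at 3.04, 6.65 and 4.52 CPM in wild-type and 17.2, 58.6 and 6.32 CPM in knockout libraries, so its groups overlapped. Wild-type and knockout CPM ranges were apart for 2 of the 7 genes, beside 50.5% of all genes. Rptn, Flg, Flg2 and Hrnr were highest in knockout replicate 2. Tchh, Tchhl1 and Crnn of the same list were instead lowest there of all libraries, with Tchh at 23.7, 3.48 and 56.5 CPM in knockout replicates 1 to 3. With knockout replicate 2 left out, 6 of the list were higher. With only libraries under 40% unmapped pairs 5 were higher.

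The annexins, the calcium-dependent membrane proteins that S100 dimers bridge, were higher for 5 of 10 tested genes beside the background of 17.6%. edgeR called 0 lower, with 0 lower at an unadjusted p under 0.05 and 0 in DESeq2. Anxa8 changed most, from a mean of 47.6 ± 6.92 to 263 ± 22.7 CPM (SD, n = 3 per group; 5.53-fold, edgeR adjusted p = 5.91e-06). Anxa7, Anxa6 and Anxa3 rose by 0.40, 0.44 and 0.45 on the log2 scale. Leaving out wild-type replicate 1, 2 or 3 gave 2, 2 and 1 higher. Of the 22 listed binding partners of S100 proteins, annexins included, 4 were higher and 3 lower. Over all genes 17.6% were higher and 18.4% lower, so both numbers are near the background. Atp2a2, the calcium pump on which S100a1 acts, fell by 0.57, and the phosphatase Ppp5c fell by 0.50 on the log2 scale. Kcnk3, a potassium channel that S100a10 helps to the surface, rose by 1.37 at 0.347 to 1.54 CPM. Without wild-type replicates 1 and 3 the number of partners higher was 2 and 1, and it was 8 without knockout replicate 1. The number lower was 5 without knockout replicate 1 or 2 and with only libraries under 40% unmapped pairs.

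Receptors reported to bind secreted S100 proteins were higher for 3 and lower for 2 of 8 tested genes. Over all genes 17.6% were higher and 18.4% lower, so the number lower is near the background. DESeq2 called 2 receptors higher and 2 lower. With wild-type replicate 1, 2 or 3 or knockout replicate 2 or 3 left out, 2 were higher. Ager, the receptor RAGE, was low throughout, at 1.33, 1.75 and 1.42 CPM in wild-type and 2.15, 3.12 and 2.28 CPM in knockout libraries (log2 fold change 0.75, SE 0.24, edgeR adjusted p = 0.0429). Tlr4, an innate immune receptor of macrophages, fell 2.79-fold, from a mean of 36.8 ± 3.55 to 13.2 ± 2.97 CPM (SD, n = 3 per group; adjusted p = 0.000279), and Fpr1, a receptor of phagocytes, fell by 1.40 on the log2 scale. Cd36 and Alcam rose by 1.71 and 0.72. The macrophage markers moved with Tlr4 and Fpr1, and their part was not tested.

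Because S100a10 with annexin A2 holds plasminogen at the cell surface, the plasminogen genes were listed too, and 6 of 9 tested genes were higher and 2 lower. Over all genes 17.6% were higher and 18.4% lower, so the number lower is near the background. Plau, urokinase, rose 3.39-fold, from a mean of 171 ± 20.4 to 580 ± 13.7 CPM (SD, n = 3 per group; edgeR adjusted p = 1.25e-05). The tissue-type activator Plat rose by 0.57 and the surface binder Eno1 by 0.49 on the log2 scale. The plasminogen receptor gene Plgrkt fell by 0.50. When wild-type replicate 1, wild-type 2 or knockout 3 was left out, 1 was lower.

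Over the 6 libraries, the log2 CPM of S100a14 correlated best with Rac3, R3hcc1 and Rab8a (Pearson r of 0.999, 0.999 and 0.998) among 10048 other genes with a mean of at least 10 CPM. That of S100a6 correlated best with Rars, Rraga and Dnajb11 (r of 0.999, 0.998 and 0.997). The libraries form 2 groups, so r mostly reflects the genotype difference, and 80 and 62 genes reached at least 0.99. These are descriptions, with no test.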

How the data were processed

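Whole-tumor RNA was sequenced as paired reads of 50 bases in 3 wild-type and 3 Ki-67-KO libraries, per the labels. STAR 2.6.0c, FastQC, DESeq2 and GRCm38 appear in the submitters' processing notes. The authors deposited raw counts, whole read pairs for each gene, with no normalization, in the layout of STAR's gene counts, where pairs on several genes or places are not counted. The annotation release is not given in the sources used here. The first 4 rows name no gene and were left out (unmapped pairs were 30.8% to 54.6%). The unstranded column was used, since the first stranded column held 50.1% to 50.2% of stranded counts. Sense and antisense pairs cannot be told apart.

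From the counts, symbols, coordinates and exonic lengths came from GENCODE M21 (54079 of 54146 identifiers matched). edgeR 4.0.16 in R 4.3.3 (filterByExpr, TMM, glmQLFit, glmQLFTest) was fitted to all 6 libraries, without covariates. The SE is the absolute log2 fold change over the square root of F. CPM and counts per kilobase use TMM library sizes, and correlations use log2(CPM + 0.5). Intervals are 95%. Alternatives were DESeq2 1.42.0, 2 other scalings, 2 other filters, the stranded columns, a robust fit, a replicate block, 2 covariates, libraries under 40% unmapped, and each library left out. The fitting step was tested on simulated data. Named genes were all members, up to 6 genes of each list with the smallest p, the genes of 6 fixed ratios, the 2 most abundant markers of each cell type, and the closest genes by correlation. Not every gene this rule names is reported here. The members and lists were chosen with earlier results of these data known.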

Additional observations from a re-analysis of the deposited data

How the results depend on the processing

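Over 18 alternatives S100a14 and S100a16 kept their direction and their call, and S100a11, S100a6 and S100a4 their direction. S100a11 lost its call in 3 alternatives, S100a6 in 1 and S100a4 in 10. The number of S100 genes higher was 5 with only libraries under 40% unmapped pairs, against 3, and 2 to 4 with a library left out. The number lower, 2, was 1 with library totals alone, with the stricter filter, with either stranded column, with the replicate block and with the unmapped share as a covariate, 0 with the outside-exon share as covariate, and 1 to 3 with a library left out. DESeq2 gave 4 higher and 2 lower. All genes called numbered 4078 to 9301 with a library left out, against 7158, and the chromosome 3 genes higher 10 to 46, against 37. The cause was not tested.

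Genes that did not pass changed sign in some settings. S100a10 was at 0.037 with the unmapped share as a covariate and at 0.012 with only libraries under 40% unmapped pairs. S100a13 was at -0.059 in DESeq2, -0.085 without the filter, -0.014 with the replicate block, and -0.17 to 0.083 with a library left out. S100b was at -0.029 with the unmapped share as a covariate, -0.075 with only libraries under 40% unmapped pairs and -0.048 to 0.37 with a library left out. The 6 count ratios kept their direction in the first stranded column and with each library left out.

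The labels give replicate numbers and no pairing. Deviations of same-numbered libraries correlated at 0.11, -0.09 and -0.18. With 3 libraries per group these correlations cannot decide whether same-numbered libraries share a batch. Under the replicate block S100a4 had an adjusted p of 0.0635 (edgeR). The counts per gene list without a library, or with only libraries under 40% unmapped pairs, were chosen after seeing the data. S100b gave no value with the stricter filter or in the first stranded column, since it failed the filter there. Depth limits S100b, at 13 to 25 counts per library.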

Other observations

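Other EF-hand proteins, the wider family to which S100 proteins belong, moved both ways, 5 higher and 5 lower of 24 tested genes, beside 17.6% and 18.4% of all genes. DESeq2 called 2 higher and 7 lower. Myl9, a smooth muscle myosin light chain, rose by 1.73 and Rcn3, of the secretory pathway, by 1.25 on the log2 scale (edgeR). Lcp1, the actin bundler of leukocytes, fell by 1.06, Rcn2 fell by 0.74, Cib1 fell by 0.62 and Chp1 fell by 0.61. The 8 smooth muscle and pericyte markers summed to 137 to 177 CPM in wild-type and 362 to 623 CPM in knockout libraries, and their part in the Myl9 value was not tested. Without wild-type replicates 1, 2 and 3 or knockout replicate 3 in turn the number higher was 2, and without knockout replicate 1 the number lower was 11. With only libraries under 40% unmapped pairs 3 were higher and 8 lower.

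Of the other S100 genes, S100a2, S100a5, S100g and S100z were counted at 0 to 16 pairs per library and were not tested. S100pbp, which encodes a nuclear protein that binds an S100 protein, went from a mean of 49.0 ± 4.65 to 34.5 ± 4.02 CPM (SD, n = 3 per group; log2 fold change -0.51, edgeR adjusted p = 0.0103).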
